A study of Mus musculus with 178 samples.

Results

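Expression of 10 genes of DNA replication and cell division was followed in the blood of tumor-bearing mice on anti-PD-1 treatment. The genes were Mcm2, Mcm3, Mcm4, Mcm5, Mcm6, Mcm7, Mki67, Top2a, Pcna and Pold1. They were found by symbol among the 55450 gene rows of the count table, and all 10 passed the filter on low counts in every comparison. The study asked which changes in blood separate mice that respond to immune checkpoint blockade from mice that do not.

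All mice were C57BL/6J animals of 6 to 8 weeks that carried 4MOSC1 cells, a carcinogen-induced mouse oral squamous carcinoma line, in the tongue or the buccal mucosa. All received an antibody against PD-1, so no untreated group was measured here, and the tumors came from 1 cell line. The labels place 15 mice among the responders and 30 among the nonresponders. Blood was drawn by retro-orbital puncture on Day 4, before treatment, and on treatment on Days 9, 17 and 24, and each draw of a mouse gave 1 library of polyA RNA. The responders gave 15, 15, 14 and 15 libraries on these days in order, and the nonresponders gave 29, 30, 30 and 30. The sex of the mice is not in the labels.

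The 178 libraries held 26058958 to 82208665 counts each, of which haemoglobin genes took 68.7% to 88.0%. This left 4535330 to 22174668 counts for all other genes. The day 24 library of nonresponder 29 stood apart, with a TMM scaling factor of 0.0848 against 0.266 to 2.46 in the others, and results that rest on it are given with and without it. The description of the day 17 library of nonresponder 24 names the other response than the remaining 3 libraries of that mouse. The red cell gene Alas2 and the T cell gene Cd3e had counts in every library. Of 13 neutrophil precursor markers Elane and Mpo were at 0 in 156 and 120 libraries, while Chil3, Mmp8, Lcn2 and Ltf had counts in all. Of 8 epithelial markers Trp63 and Krt14 were at 0 in 148 and 72 libraries, while Sfn and Epcam had counts in all, and the summed list reached 156.8 CPM in a nonresponder library on Day 9. Ear tags had 4 digits in 11 responders and 7 nonresponders, and 3 digits in 4 responders and 23 nonresponders, so tag series and response overlapped in part.

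The products of these genes act at successive steps of cell division. Mcm2 to Mcm7 encode the subunits of the ring-shaped helicase that is loaded on replication origins before DNA synthesis, a step called licensing, and that later unwinds the fork. Pcna encodes the sliding clamp that holds DNA polymerases on the template, and Pold1 encodes the catalytic subunit of DNA polymerase delta. Top2a encodes topoisomerase II alpha, which untangles chromosomes, and Mki67 encodes Ki-67, which coats mitotic chromosomes and is widely used as a marker of cycling cells. Most circulating leukocytes are not dividing, and mature red cells have no nucleus.

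Promoters are shown for 2 licensing genes that fell from Day 4 to Day 9 (Mcm5 and Mcm6) and for the 2 members that were higher in responders (Mki67 and Top2a). Sequences were taken from RefSeq on build GRCm38.p6 and cover the 160 bases before the annotated start of transcription, 5′ to 3′ on the gene's strand. Capitals mark words known from cell cycle promoters, searched on both strands: the E2F words TTTCCCGC, TTTGCCGC, TTTCGCGC and TTTGGCGC, and the CHR words TTTGAA and TTCGAA. The windows are chr8:75109349-75109508 (plus strand) for Mcm5, chr1:128359706-128359865 (minus strand) for Mcm6, chr7:135716380-135716539 (minus strand) for Mki67 and chr11:99024190-99024349 (minus strand) for Top2a.
Mcm5: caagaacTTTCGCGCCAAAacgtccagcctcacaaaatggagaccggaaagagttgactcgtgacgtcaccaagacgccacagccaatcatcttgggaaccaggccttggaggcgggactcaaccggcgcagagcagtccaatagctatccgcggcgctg
Mcm6: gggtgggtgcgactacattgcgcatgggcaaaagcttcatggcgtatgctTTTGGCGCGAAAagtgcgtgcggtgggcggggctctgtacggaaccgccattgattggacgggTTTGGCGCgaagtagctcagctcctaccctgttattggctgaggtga
Mki67: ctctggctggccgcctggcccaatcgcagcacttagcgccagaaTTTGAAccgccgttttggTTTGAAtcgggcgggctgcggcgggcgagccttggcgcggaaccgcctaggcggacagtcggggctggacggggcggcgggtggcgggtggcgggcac
Top2a: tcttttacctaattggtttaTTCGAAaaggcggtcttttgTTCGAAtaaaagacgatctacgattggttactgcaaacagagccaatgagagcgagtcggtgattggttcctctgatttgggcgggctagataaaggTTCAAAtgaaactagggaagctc

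In Mcm5 and Mcm6 an E2F word on one strand overlaps another on the opposite strand, which gives the longer runs of capitals. Of the members that fell, Mcm3 and Pold1 hold 0 capitals in the same 160 bases, and the 2 entries of Mcm7 hold 0 and 3. Mcm2 holds a CHR word there and no E2F word, and Mcm4 has no entry. Mcm5 and Mcm6 are thus not typical of the members that fell. Over the whole window in the table, 250 bases before to 50 after the start, an E2F word stood in 5 of the 9 members with an entry (Mcm3, Mcm5, Mcm6, Mcm7 and Pold1). The same words stood in 2.26% of all 32851 windows. A CHR word stood in 4 members (Mcm2, Mcm7, Mki67 and Top2a) and in 19.2% of all windows. The pentamer CCAAT stood in 8 of the 9 members and in 37.4% of all windows. Mcm7 has 2 entries and was counted once. These matches describe the letters of the window, and no binding was measured.

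The positions of the genes are those of GENCODE M21 on GRCm38. Mcm2 spans chr6:88883474-88898780, Mcm3 chr1:20802968-20820312, Mcm4 chr16:15623897-15637400, Mcm5 chr8:75109569-75128439 and Mcm6 chr1:128331590-128359664. Mcm7 spans chr5:138164583-138172422, Mki67 chr7:135689784-135716361, Top2a chr11:98992943-99024189, Pcna chr2:132249162-132253314 and Pold1 chr7:44532746-44548849. Mcm5 lies on the plus strand and the other 9 on the minus strand. Pcna has processed pseudogenes. Its deposited count was not whole in 77.0% of the libraries, against 3.9% for Mcm7 and 0.0% for the other members. Mcm7 overlaps Cops6, Ap4m1 and 3 miRNA genes, Pold1 overlaps a pseudogene and a miRNA gene, Top2a overlaps 2 snoRNA genes, and Mki67 an unclassified transcript on the opposite strand, by their coordinates. Whether these genes shared reads in the counting was not tested.

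All 10 genes were expressed at a low level. Per length, as TPM, the median over the 178 libraries was 3.32 for Pcna, 2.34 for Pold1, 1.37 for Mcm3, 1.32 for Mcm7 and 0.955 for Mcm6. It was 0.815 for Mcm4, 0.71 for Mcm2, 0.565 for Mcm5, 0.34 for Mki67 and 0.25 for Top2a. By these medians the clamp and the polymerase stood above the helicase subunits, and the mitotic genes below them. The group medians kept these tiers, except that Mki67 (0.43 TPM) stood above Mcm5 (0.39) in responders on Day 9. Within the helicase the median of Mcm7 stood above that of Mcm3 in both groups on Day 17. In the order of the medians over all libraries each gene exceeded the next in 139 to 176 of 178 libraries, except that Mcm3 exceeded Mcm7 in 103, so these neighbours were not separated. The median deposited count was lowest for Top2a, at 91 per library (21 to 273), and was 429.5 for Mki67 (138 to 1077).

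The TMM-scaled log2 CPM, the log2 of counts scaled to a common library size after libraries are matched on most of their genes, is the level used from here on. Over the 178 libraries its SD was 0.64 for Mki67 and 0.31 for Top2a, and 0.15 to 0.24 for the other 8 genes. Mki67 was thus the most variable member. In whole blood a change in such a level cannot be told apart from a change in the number of cells that carry the RNA.

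**Figure D1:**
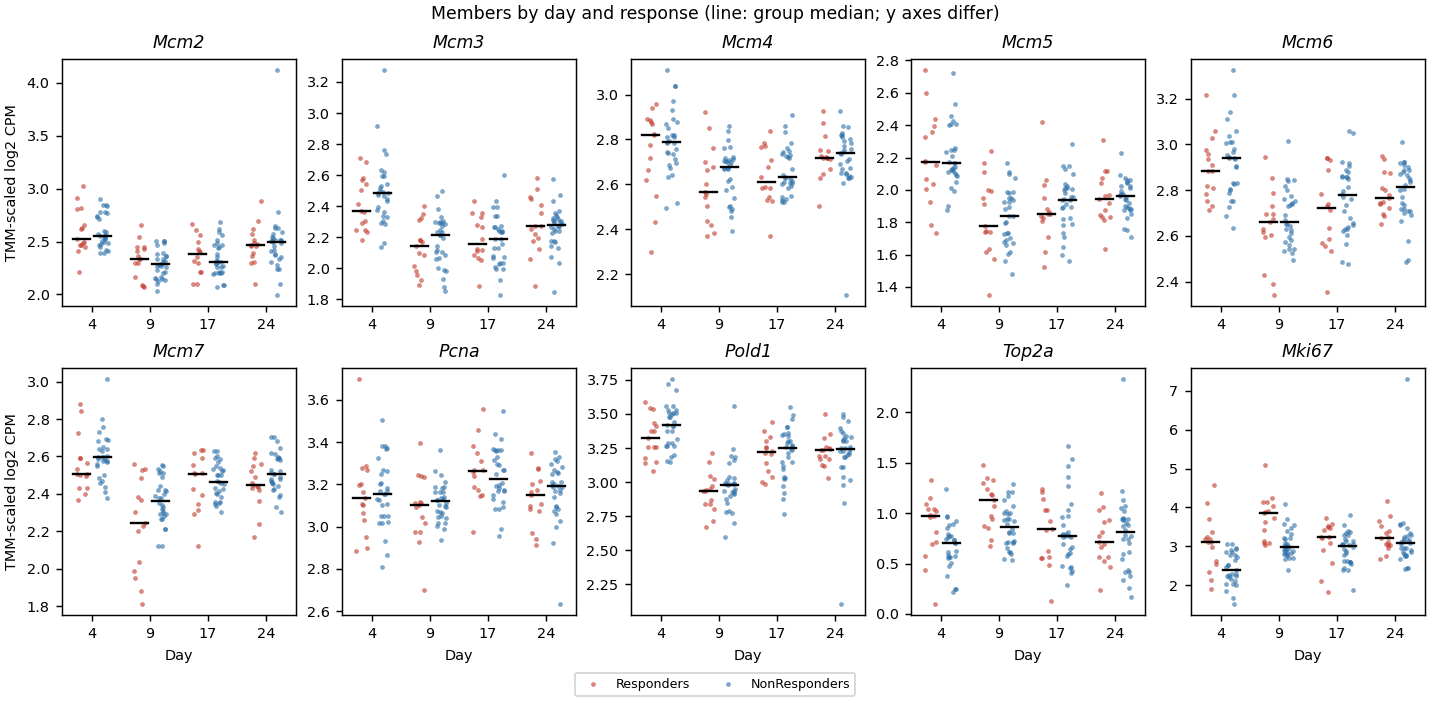
Level of each member in every library (TMM-scaled log2 CPM, y axes differ) by day and response, with a line at the group median. Mki67 was higher in responders on Days 4 and 9, the Mcm genes and Pold1 had their highest group median on Day 4, except Mcm7 in responders (2.51 on Days 4 and 17), and the day 24 library of nonresponder 29 reaches 7.30 for Mki67.

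The first comparison asked whether responders and nonresponders differed on each day. Mki67 was higher in responders on Days 4 and 9 and Top2a on Day 9, while the helicase subunits, the clamp and the polymerase did not pass the test on any day. On Day 4 Mki67 lay at 1.91, 3.12 and 4.58 (lowest, median and highest log2 CPM) in 15 responders. It lay at 1.53, 2.40 and 3.07 in 29 nonresponders. The groups overlapped, with 12 of 15 responders above the nonresponder median and 9 above the highest nonresponder. The log2 difference was 0.76 ± 0.16 (SE), a 1.70-fold difference, with an edgeR quasi-likelihood adjusted p of 0.00302 (Benjamini-Hochberg over all genes tested). Top2a was at 0.19 ± 0.09 (edgeR adjusted p = 0.182). Of all genes tested on Day 4, 7.42% were called, 6.4% as higher and 1.01% as lower in responders, and of the members 1 of 10 was.

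On Day 9, the first on-treatment day, Mki67 lay at 3.04, 3.87 and 5.08 in 15 responders and at 2.40, 2.97 and 4.08 in 30 nonresponders. All 15 responders stood above the nonresponder median and 4 above the highest nonresponder. The log2 difference was again 0.76 ± 0.13 (edgeR adjusted p = 4.23e-05). Top2a lay at 0.67, 1.13 and 1.48 in responders and at 0.53, 0.86 and 1.29 in nonresponders, with 12 of 15 responders above the nonresponder median. Its log2 difference was 0.22 ± 0.07 (edgeR adjusted p = 0.0308). The call of Top2a was lost when responder 14 (adjusted p = 0.066), responder 6 (0.059), responder 2 (0.0549) or responder 3 (0.0502) was left out in edgeR. On this day 13.4% of all genes were called, 9.43% as higher and 3.96% as lower, and 2 of 10 members were.

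On Days 17 and 24 edgeR called 0 members, where 1.99% (0.799% higher and 1.19% lower) and 8.55% (3.41% and 5.14%) of all genes were called. The Day 24 share became 21.4% (12.6% higher and 8.84% lower) without the day 24 library of nonresponder 29, with 0 members called. No member reached an unadjusted p under 0.05 on Day 17 and 1 did on Day 24, where 2580 of 12520 and 3032 of 12469 genes did. DESeq2 also called 0 members on both days. The log2 difference of Mki67 was 0.21 ± 0.14 on Day 17 (edgeR adjusted p = 0.381) and -0.24 ± 0.32 on Day 24 (0.716). Without the day 24 library of nonresponder 29 the latter became 0.25 (edgeR adjusted p = 0.0876). For the helicase subunits, Pcna and Pold1 the estimated differences were small on every day. The 95% interval of Mcm2 on Day 4 ran from -0.11 to 0.12 on the log2 scale, and that of Mcm5 from -0.13 to 0.15. The lowest estimate among these genes was that of Mcm7 on Day 9, -0.11 with an interval of -0.22 to -0.00 (edgeR adjusted p = 0.192).

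Within the tag series Mki67 kept its direction on both early days with fewer mice. Of all genes 0% were called in either series on Day 4, and on Day 9 4.16% in the 3-digit and 0% in the 4-digit series. On Day 4 its log2 difference was 0.86 in the 3-digit series (edgeR adjusted p = 0.0909) and 0.52 in the 4-digit series (0.213). On Day 9 it was 0.80 (edgeR adjusted p = 0.0163) and 0.44 (0.468). With the series as a covariate it was 0.68 on Day 4 (edgeR adjusted p = 0.0139) and 0.60 on Day 9 (0.00546). Top2a on Day 9 was 0.31 (edgeR adjusted p = 0.196) and 0.27 (0.375) within the series and 0.29 (0.0168) with the covariate.

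The difference depended on how libraries were scaled. TPM takes each gene as a share of all RNA counted, haemoglobin included, and the median haemoglobin share was 83.8% in responders and 79.4% in nonresponders on Day 4, and 83.1% and 78.5% on Day 9. On log2(TPM + 0.1) with limma, the median difference of all genes was -0.65 on Day 4 and -0.61 on Day 9, and 9 of the 10 members were called lower on each day, where 87% and 89.2% of all genes were. Mki67 was the member not called, with a difference of -0.14 ± 0.12 on Day 4 and 0.00 ± 0.11 on Day 9. Relative to the median of all genes Mki67 stood at 0.52 and 0.61 and Top2a at 0.28 and 0.27. The other 8 members stood between -0.21 and 0.08 of that median on both days. On both scales, therefore, Mki67 and Top2a lay above the other members, and the sign of their difference turned or vanished on TPM.

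**Figure D2:**
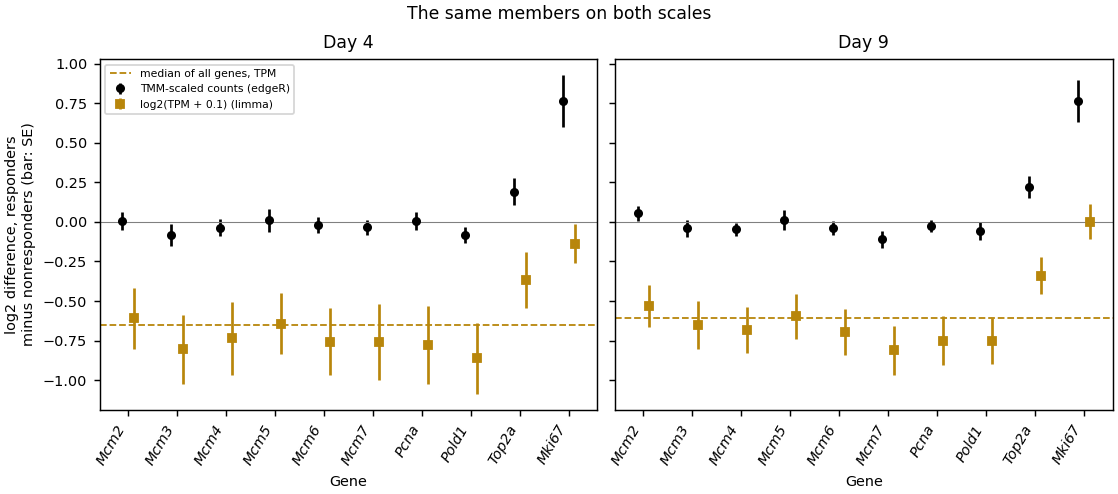
Difference between responders and nonresponders (log2, bar: SE) of each member on Days 4 and 9, from TMM-scaled counts (black) and from log2(TPM + 0.1) (ochre), with a dashed line at the TPM median of all genes. Mki67 is at 0.76 on TMM-scaled counts on both days, and at -0.14 and 0.00 on TPM.

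The second comparison asked what changed between days within each response group. With no untreated mice, a change from Day 4 on treatment cannot be told apart from one with time, tumor growth or repeated bleeding. From Day 4 to Day 9, on TMM-scaled counts, the replicative helicase and Pold1 fell in both groups while Mki67 rose. By limma on log2(TPM + 0.1) 0 members were lower in responders, where 0.177% of all genes were. In nonresponders 1 member was lower, where 6.49% of all genes were, and 4 were with a pseudocount of 1 (9.98% of all genes). In edgeR with a fold of at least 1.5 0 members were lower in either group, with 1.6% and 1.61% of all genes. These comparisons and those on later days share the Day 4 libraries, so they are given side by side. In edgeR without a minimum fold 27.7% of all genes were called in responders, 13.5% higher and 14.2% lower, and 50.8% in nonresponders, 23.3% higher and 27.5% lower. Among the members 1 rose and 7 fell in responders, and 2 rose and 7 fell in nonresponders. The median log2 change of the members was -0.25 in responders, where that of all genes was 0.01, and -0.24 in nonresponders, where that of all genes was -0.01.

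Pold1 had the lowest adjusted p of the members on Day 9. In responders it lay at 3.08, 3.32 and 3.59 on Day 4 and at 2.67, 2.94 and 3.21 on Day 9. It was lower in 14 of 15 mice, a log2 change of -0.39 ± 0.05 (edgeR adjusted p = 2.29e-07). In nonresponders Pold1 lay at 3.15, 3.42 and 3.75 on Day 4 and at 2.60, 2.98 and 3.56 on Day 9. It was lower in 28 of 29 mice, a change of -0.44 ± 0.05 (edgeR adjusted p = 1.49e-14), so it fell in nearly every mouse although the ranges of the days overlapped.

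Among the helicase subunits Mcm5 fell furthest. In responders it lay at 1.73, 2.17 and 2.74 on Day 4 and at 1.35, 1.77 and 2.24 on Day 9. The change was -0.35 ± 0.09 (edgeR adjusted p = 0.00133), lower in 12 of 15 mice. In nonresponders Mcm5 went from 1.88, 2.16 and 2.72 to 1.48, 1.84 and 2.17, a change of -0.37 ± 0.04 (edgeR adjusted p = 1.31e-12), lower in 27 of 29 mice. The days overlapped in both groups.

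The other subunits fell by less. In responders the log2 changes were -0.30 for Mcm7, -0.27 for Mcm3, -0.25 for Mcm2, -0.24 for Mcm6 and -0.14 for Mcm4, with edgeR adjusted p from 0.000286 to 0.0465. The call of Mcm4 was the weakest, and it was lost when any of responders 5, 7, 8, 10, 12, 14 or 15 was left out (edgeR adjusted p of 0.07 to 0.143). Its change was 0.16 in the 4 responders with 3-digit tags (edgeR adjusted p = 0.423). In nonresponders the changes were -0.33 for Mcm3, -0.32 for Mcm2, -0.24 for Mcm6, -0.24 for Mcm7 and -0.15 for Mcm4, with edgeR adjusted p from 1.28e-11 to 2.55e-05. Each subunit was lower in 22 to 28 of 29 nonresponders.

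Pcna was not called on Day 9 in either group, and no test compared it with the helicase subunits. Its change was -0.07 ± 0.06 in responders (edgeR adjusted p = 0.456) and -0.05 ± 0.03 in nonresponders (0.209), with 95% intervals of -0.19 to 0.06 and -0.12 to 0.02.

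Mki67 rose on Day 9 by 0.66 ± 0.20 in responders, 1.58-fold (edgeR adjusted p = 0.0105). It was higher in 9 of 15 mice. Without responder 14 the rise was 0.48 (edgeR adjusted p = 0.0719). In nonresponders it rose by 0.63 ± 0.18, 1.55-fold (edgeR adjusted p = 0.00206), and was higher in 27 of 29 mice. Top2a rose by 0.20 ± 0.08 in nonresponders (edgeR adjusted p = 0.0292), in 22 of 29 mice. In responders its change was 0.25 ± 0.10 (edgeR adjusted p = 0.0703), which passed with the mouse as a block (0.0439) and without responder 1 (0.0467).

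On Day 17 against Day 4 the calls covered 25.6% of all genes in responders (12.2% higher, 13.4% lower) and 46.1% in nonresponders (21.9% and 24.2%). In responders Mcm2 (-0.23), Mcm3 (-0.23), Mcm5 (-0.32) and Mcm6 (-0.19) were still lower, with edgeR adjusted p from 0.00418 to 0.0113. By limma on TPM 0 members were lower in responders, where 0.0266% of all genes were, and with pseudocounts of 0.1 and 1 the sign turned for Mcm3 (0.0353 and 0.0029) and Mcm6 (0.0572 and 0.0106). In edgeR Pold1 was at -0.13 (edgeR adjusted p = 0.0561), which passed with the mouse as a block (0.0306) and without responder 1, 2, 5, 6 or 12 (0.0279 to 0.0441). Mcm4 passed without responder 1, at -0.17 (edgeR adjusted p = 0.0266), and Pcna without responder 14, at 0.15 (0.0418). In nonresponders the 6 subunits and Pold1 were lower by between -0.34 (Mcm3) and -0.15 (Mcm7), with edgeR adjusted p of at most 7.07e-05. Mki67 was 0.50 ± 0.18 higher in nonresponders (edgeR adjusted p = 0.0193; 25 of 29 mice) and at -0.03 ± 0.21 in responders (0.933). In nonresponders this call was lost with a fold of at least 1.5 required, and by limma at 0.0781 on log2(TPM + 0.1) (adjusted p = 0.343) and 0.0203 on log2(TPM + 1) (0.43). Top2a was at 0.16 in nonresponders (edgeR adjusted p = 0.082), and passed without nonresponder 6, 8, 19 or 29 (0.0262 to 0.0424). Pcna was at 0.06 there (edgeR adjusted p = 0.143), and passed without nonresponder 11, 13, 14 or 21 (0.0389 to 0.0454).

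On Day 24 against Day 4 the calls covered 17.4% of all genes in responders (7.44% higher, 9.94% lower) and 48.7% in nonresponders (23.8% and 24.8%). In responders Mcm5 alone was lower, at -0.25 ± 0.08 (edgeR adjusted p = 0.0292). The call was lost when responder 2, 3, 8, 9, 10 or 14 was left out, with changes of -0.24 to -0.21 and edgeR adjusted p of 0.055 to 0.0897. In nonresponders Mcm3 (-0.25), Mcm4 (-0.08), Mcm5 (-0.27), Mcm6 (-0.14), Mcm7 (-0.10) and Pold1 (-0.20) were lower, with edgeR adjusted p from 2.72e-07 to 0.0214. Mcm4 lost its call when any of 11 nonresponders was left out (edgeR adjusted p of 0.0505 to 0.106). Mcm2 was at -0.12 (edgeR adjusted p = 0.0589), and at -0.17 (0.00031) without the day 24 library of nonresponder 29. It also passed without nonresponder 5 (edgeR adjusted p = 0.0482) or 8 (0.0483). Mki67 was 1.03 ± 0.19 higher (edgeR adjusted p = 3.16e-06; 24 of 29 mice), and 0.58 higher without that library. By limma it was 0.17 higher on log2(TPM + 0.1) (adjusted p = 0.0364), and at 0.047 on log2(TPM + 1) (0.0612).

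On TMM-scaled counts Pold1 rose from Day 9 to Day 17 in both groups. From Day 9 to Day 17, with 5.53% of all genes called in responders (1.85% higher, 3.68% lower) and 26.5% in nonresponders (10.3% and 16.2%), Pold1 rose by 0.26 ± 0.05 in responders (edgeR adjusted p = 0.000877; 13 of 14 mice). It rose by 0.23 ± 0.05 in nonresponders (edgeR adjusted p = 6.04e-05; 25 of 30 mice). Mcm7 rose by 0.09 ± 0.03 (edgeR adjusted p = 0.012) and Pcna by 0.11 ± 0.03 (0.00857) in nonresponders. The call of Mcm7 was lost without nonresponder 9 (edgeR adjusted p = 0.0517) or 11 (0.0594). By limma on log2(TPM + 0.1) Pold1, Mcm7 and Pcna were at -0.0667, -0.17 and -0.23 in nonresponders, none of them called, with all genes at a median of -0.27. In responders 0 members changed on this scale, where 0.151% of all genes did. In edgeR Mcm7 was at 0.19 in responders (adjusted p = 0.0659; 0.0406 with the mouse as a block), and passed without responder 4, 9 or 11 (0.0325 to 0.0462).

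Mki67 fell from Day 9 to Day 17 in responders by 0.69 ± 0.21 on the log2 scale (edgeR adjusted p = 0.0321; lower in 11 of 14 mice). The call was lost with the mouse as a block, at -0.62 (edgeR adjusted p = 0.061). It was also lost, at changes of -0.67 to -0.60, without responder 4 (edgeR adjusted p = 0.0636), 11 (0.0652), 14 (0.0792) or 15 (0.0557), and by limma on log2(TPM + 0.1), at -0.33 (adjusted p = 0.633). In nonresponders the change was -0.14 ± 0.18 (edgeR adjusted p = 0.616). Top2a was at -0.29 in responders (edgeR adjusted p = 0.091), and passed without responder 9 (0.0436).

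From Day 17 to Day 24 edgeR called 0 members in responders, where 18.9% of all genes were called (9.59% higher, 9.31% lower). In the same comparison 1 member had an unadjusted p under 0.05, as did 3989 of 12561 genes, and DESeq2 called 0 members. In nonresponders, with 21.2% of all genes called (9.86% higher, 11.3% lower), Mcm2 rose by 0.15 ± 0.06 (edgeR adjusted p = 0.0335) and Mki67 by 0.54 ± 0.18 (0.0264). Without nonresponder 29 Mki67 changed by 0.09 (edgeR adjusted p = 0.554) and Mcm2 by 0.10 (0.0626). The call of Mcm2 was also lost without nonresponder 8 (edgeR adjusted p = 0.0531), and both calls were lost with the mouse as a block (0.0521 for Mcm2 and 0.184 for Mki67) and by limma on log2(TPM + 0.1), at 0.00096 for Mcm2 and 0.0879 for Mki67.

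**Figure D3:**
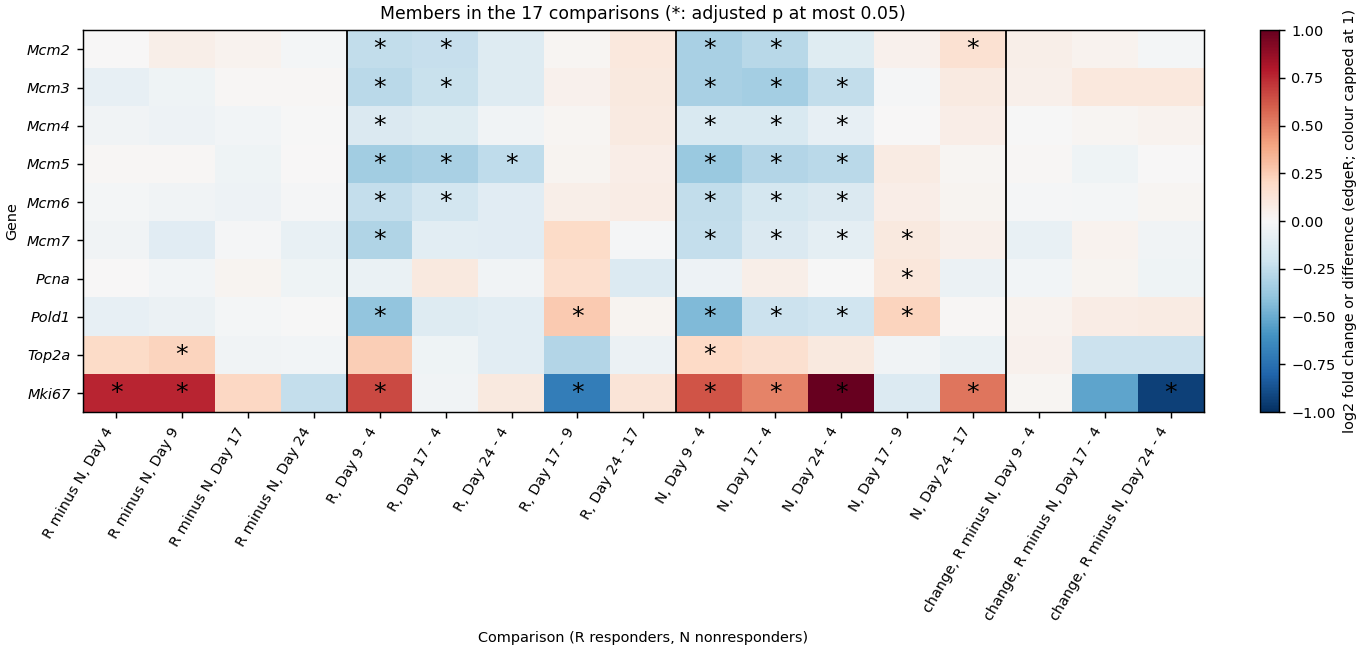
Log2 fold change (colour, capped at 1 in size) of the 10 members in the 17 comparisons, from edgeR, with a star where the adjusted p was at most 0.05. The Mcm genes and Pold1 are blue on Days 9 and 17 against Day 4, and Mki67 is red on Day 9 in both groups and on Day 17 in nonresponders, while it is at -0.03 on Day 17 in responders.

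Whether the change from Day 4 differed between the groups was tested directly. At Day 9 0% of all genes and at Day 17 0.351% differed, and edgeR and DESeq2 each called 0 members, with 0 at an unadjusted p under 0.05. Of all 13688 genes 719 and 1402 were under that p. For Pold1 the difference of the Day 9 changes was 0.03, with a 95% interval of -0.12 to 0.18, and for Mcm5 it was 0.01 (-0.16 to 0.18). For Mki67 it was 0.02, and its interval was wide, -0.55 to 0.60. At Day 24, where 3.76% of all genes were called (1.67% higher, 2.1% lower), the change of Mki67 was lower in responders by -0.94 ± 0.30 (edgeR adjusted p = 0.0493). Without the day 24 library of nonresponder 29 it was -0.48 (edgeR adjusted p = 0.2), where 1.12% of all genes were called, and with the mouse as a block -0.63 (0.171).

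That library held 662 counts of Mki67, 73 of Mcm2 and 15 to 26 of each other member. Its Mki67 level of 7.30 stood above the 2.41 to 3.59 of the other 29 nonresponders on Day 24, and its Mcm2 level of 4.12 above 2.00 to 2.78. Its Top2a level of 2.33 was above 0.17 to 1.22. Its levels of Mcm3 (1.85), Mcm4 and Pold1 (both 2.11) and Pcna (2.64) lay below all others of that day. Its summed red cell markers were also the highest of that group, at 496500 CPM against a group median of 26090. On TPM its Mki67 was 0.49.

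The rest of the replication and division machinery was followed in 4 lists. Of 57 further licensing and fork genes, 54 were tested in responders from Day 4 to Day 9, where 1 rose and 10 fell, and 56 in nonresponders, where 6 rose and 22 fell. The fallen genes were 18.5% of those tested in responders and 39.3% in nonresponders, beside 14.2% and 27.5% of all genes. The risen ones were 1.85% and 10.7%, beside 13.5% and 23.3%. The median changes of the list were -0.08 and -0.09. Rpa1, of the single-strand binding complex RPA, fell by 0.42 on the log2 scale in responders and by 0.40 in nonresponders. Pole4, a subunit of DNA polymerase epsilon, fell by 0.40 and 0.29. Gins4, part of the GINS complex of the active helicase, fell by 0.31 in responders, and Pold2, the partner subunit of Pold1, fell by 0.45 in nonresponders. Dna2, a nuclease and helicase, rose by 1.01 and 1.18, and Mcm10 by 0.73 and Pclaf, which binds PCNA, by 0.65 in nonresponders.

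Of 18 genes of nucleotide supply, 1 rose and 7 fell in responders by Day 9, with a median of -0.18, and 2 rose and 12 fell in nonresponders, with a median of -0.20. The fallen genes were 38.9% and 66.7% of the list, beside 14.2% and 27.5% of all genes. Impdh2, of guanine nucleotide synthesis, fell by 0.50 and 0.43 on the log2 scale. Cad, which starts pyrimidine synthesis, and Atic, of purine synthesis, fell by 0.44 and 0.39 in nonresponders. Rrm2, the regulated subunit of ribonucleotide reductase, went the other way and rose by 0.44 and 0.46.

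Of 63 mitotic genes, 51 were tested in responders and 52 in nonresponders by Day 9, where 6 rose and 3 fell, and 18 rose and 4 fell. The risen genes were 11.8% of those tested in responders and 34.6% in nonresponders, beside 13.5% and 23.3% of all genes. The fallen ones were 5.88% and 7.69%, beside 14.2% and 27.5%. Hmgb2, a chromatin protein, rose by 0.42 and 0.54. Cenpf, a kinetochore protein, and Espl1, which encodes separase, rose by 0.65 and 0.90 in nonresponders, and Cenpf by 0.77 in responders. Stmn1, a microtubule regulator, fell by 0.42 on the log2 scale in responders. In nonresponders the condensin genes Ncapd2 and Smc4 fell by 0.28 and 0.29, and Bub3, of the spindle checkpoint, by 0.22. Of 36 cell cycle regulators, 31 and 34 were tested, and 3 rose and 2 fell in responders and 8 rose and 5 fell in nonresponders. These counts of the 4 lists are on TMM-scaled values. By limma on log2(TPM + 0.1) 0 of 44 licensing and fork genes were called in responders, and 1 higher and 1 lower of 45 in nonresponders. On that scale 0 of 16 genes of nucleotide supply were called in responders, and 1 higher and 4 lower of 17 in nonresponders. Of the mitotic genes 2 of 32 and 9 of 35 were higher and 0 lower, and of the regulators 1 of 24 and 3 of 27 were higher, and 0 and 1 lower. Of all genes 2.09% and 9.36% were higher and 0.177% and 6.49% lower.

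Between responders and nonresponders, on TMM-scaled counts, 12 of 50 mitotic genes were higher in responders on Day 4 and 0 lower, and on Day 9 12 of 52 and 0. By limma on log2(TPM + 0.1) 0 were higher and 20 lower of 33 on Day 4, and 0 higher and 21 lower of 35 on Day 9, where 87% and 89.2% of all genes were lower. The median difference of the list was -0.41 and -0.40 on that scale, beside the -0.65 and -0.61 of all genes. On Day 17 1 was higher and 1 lower of 50, and on Day 24 0 and 0 of 50. Of all genes 6.4%, 9.43%, 0.799% and 3.41% were higher on these days in order, and 1.01%, 3.96%, 1.19% and 5.14% lower. Ube2c was 1.16, Spc24 1.09 and Birc5 0.79 higher on Day 4, and Ccnb2 0.89, Cdc25b 0.81 and Tpx2 0.74 higher on Day 9 (log2 differences). E2f2, a transcription factor of the E2F family, was 1.03 and 0.83 higher. Rrm2 was 0.62 and 0.57 higher, and Tyms, thymidylate synthase, 0.49 on Day 9. Of 54 licensing and fork genes 0 were higher and 2 lower on Day 4 (Rfc1 at -0.19 and Topbp1 at -0.28), and of 55 on Day 9 1 was higher (Dnmt1, 0.16) and 1 lower (Topbp1, -0.13). On Day 17 0 of 55 were higher and 1 lower, and on Day 24 0 of 53 and 4. Of 18 genes of nucleotide supply 1, 2, 0 and 1 were higher on the 4 days and 0 lower. Of the cell cycle regulators 3 of 31, 5 of 32, 1 of 31 and 0 of 31 were higher, and 1, 1, 0 and 1 lower. By limma on log2(TPM + 0.1) 0 genes of these 3 lists were higher on Day 4 or 9. On Day 4, 43 of 45 licensing and fork genes, 16 of 17 genes of nucleotide supply and 25 of 28 regulators were lower. On Day 9 these were 45 of 46, 14 of 17 and 24 of 27, beside 87% and 89.2% of all genes on the 2 days. The lists on the later days depended on the settings. On Day 24 without the day 24 library of nonresponder 29, 5 mitotic genes were higher and 2 lower of 50, 6 licensing and fork genes lower of 53, 2 genes of nucleotide supply higher of 18, and 5 regulators higher and 1 lower of 31, beside 12.6% of all genes higher and 8.84% lower. With the tag series as a covariate edgeR called 0 genes in all on Day 17, and on Day 24 0 genes of the 4 lists, beside 0.313% of all genes higher and 0.666% lower. With that covariate 11 of 50 mitotic genes were higher on Day 4 and 8 of 52 on Day 9, beside 10.7% and 5.88% of all genes. On Day 9 2 of 32 regulators and 0 of 18 genes of nucleotide supply were higher, and 0 of 55 licensing and fork genes were called. The Day 9 calls of Dnmt1 and Topbp1 were thus lost. On TPM the differences of Rrm2, E2f2 on Day 4, Tyms and Dnmt1 turned negative.

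Markers of blood cells moved in the same comparisons, and their part in the results was not tested. All 24 red cell genes tested (of 25 listed, without haemoglobin) were higher in responders on Days 4 and 9, by a median of 1.15 and 0.93, and 0 on Days 17 and 24. Without the day 24 library of nonresponder 29, 17 of 24 were higher on Day 24, by a median of 0.51. By limma on log2(TPM + 0.1) 5 were higher on Day 4 and 19 on Day 9. On Day 4, 4 of 15 erythroid precursor, 4 of 7 mature neutrophil and 3 of 8 monocyte markers were also higher in responders, and on Day 9 12 of 16 erythroid precursor, 5 of 7 platelet and 5 of 13 effector T and NK cell markers. With the tag series as a covariate the Day 9 counts were 5, 0 and 1, where 5.88% of all genes were higher. On Day 4 the covariate gave 6 of 15 erythroid precursor, 4 of 7 mature neutrophil and 3 of 8 monocyte markers, where 10.7% of all genes were higher. Without the covariate 6.4% and 9.43% of all genes were higher on Days 4 and 9. By limma on log2(TPM + 0.1) 0 erythroid precursor, mature neutrophil and monocyte markers were higher on Day 4, and 11 of 14, 1 of 7 and 4 of 8 were lower. On Day 9 1 of 14 erythroid precursor markers was higher and 9 were lower on that scale. All 7 platelet and 10 of 12 effector T and NK cell markers were also lower there. In edgeR 0 of 10 T cell markers were called on either day, and of the B cell markers 1 of 10, lower on Day 4. By limma on log2(TPM + 0.1) all 10 T cell and all 10 B cell markers were lower in responders on both days. Of all genes 87% and 89.2% were lower on that scale. On Day 4 responders had a median summed red cell level of 34670 CPM (10700 to 107600), and nonresponders of 16980 (7712 to 44150). On Day 9 these medians were 40560 (19520 to 67060) and 21930 (9319 to 44250). From Day 4 to Day 9 3 of 24 red cell genes rose in responders, near the share of all genes (13.5%), and by limma on log2(TPM + 0.1) 20 rose. In nonresponders 12 rose by Day 9, where 23.3% of all genes did (19 without the day 24 library of nonresponder 29, and 23 by limma on TPM), and 24 by Day 24, where 23.8% did.

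Other lists moved from Day 4 to Day 9 as well. All 10 T cell markers fell in both groups, by a median of -0.54 in responders and -0.58 in nonresponders. Their summed level had a median of 152.4 CPM in responders on Day 4 (130.6 to 213.3) and of 108.1 on Day 9 (77.4 to 128). In nonresponders it went from 145.8 (122.5 to 212.7) to 107.0 (84.3 to 123). Of 10 B cell markers 6 and 10 fell. By limma on log2(TPM + 0.1) 0 T cell and 0 B cell markers were called in responders, and 10 and 3 were lower in nonresponders. Of all genes 14.2% and 27.5% were lower on Day 9, and 13.5% and 23.3% higher. Of 8 monocyte markers 5 and 8 rose, and of 13 neutrophil precursor markers 6 and 7 rose among the 8 that passed the filter. On log2(TPM + 0.1) 3 and 6 monocyte and 3 and 7 neutrophil precursor markers rose. In edgeR at most 1 plasma cell gene was called between responders and nonresponders on any day, and 2 on Day 24 without the day 24 library of nonresponder 29.

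The third question was how the members followed red cell and plasma cell genes across mice. Within each response and day, each member was compared with the haemoglobin share, with the mean log2 CPM of 24 red cell genes and with that of 20 plasma cell genes, 240 relations in all. Mki67 followed the red cell genes in all 8 groups of libraries. In responders Pearson's r was 0.97, 0.77, 0.88 and 0.74 on Days 4, 9, 17 and 24, with permutation p-values adjusted over the 240 relations of 0.0004, 0.0179, 0.00336 and 0.035. Spearman's rho was 0.92, 0.80, 0.75 and 0.52, with adjusted permutation p of 0.000686, 0.0168, 0.0583 and 0.252.

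In nonresponders r of Mki67 with the red cell genes was 0.82, 0.87, 0.81 and 0.98, each with an adjusted permutation p of 0.0004. Spearman's rho was 0.85, 0.84, 0.74 and 0.91, each again with an adjusted permutation p of 0.0004. The smallest raw permutation p that the test can give is 1e-05. Without the 2 libraries farthest from the median red cell level, r was 0.95, 0.71, 0.65 and 0.39 in responders and 0.81, 0.83, 0.69 and 0.88 in nonresponders. The relation of the responders on Day 24 thus rested on 2 libraries. Within the 4-digit tag series r was 0.96, 0.76, 0.41 and 0.69 in responders and 0.20, 0.91, 0.68 and 1.00 in nonresponders, and within the 3-digit series of the nonresponders 0.85, 0.78, 0.82 and 0.92. No r was computed for the 4 responders with 3-digit tags, since at least 6 libraries were required. On log2(TPM + 1) r of Mki67 with the red cell genes was 0.36, 0.72, 0.19 and 0.13 in responders and 0.41, 0.20, 0.38 and 0.72 in nonresponders.

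**Figure D4:**
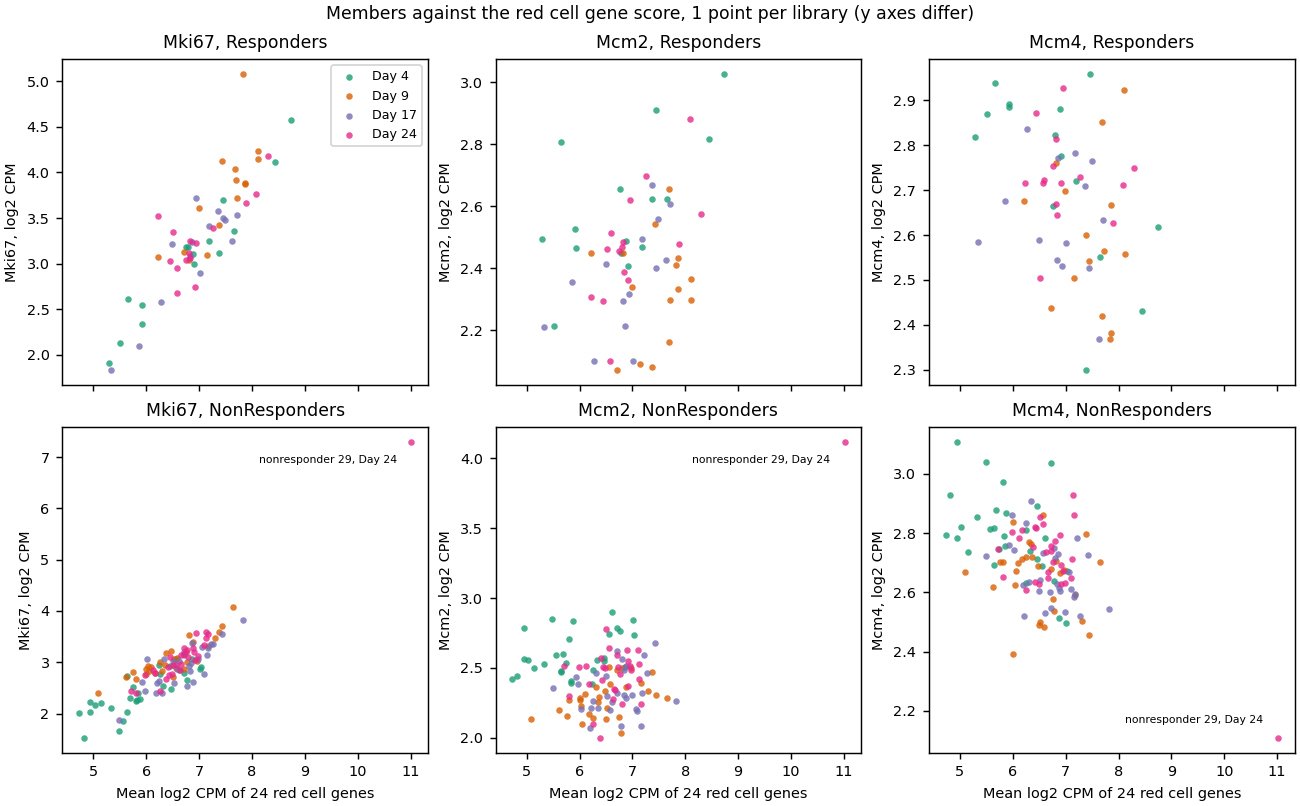
Level of Mki67, Mcm2 and Mcm4 (log2 CPM) against the mean log2 CPM of 24 red cell genes, 1 point per library, by response and coloured by day. Over the 8 groups of libraries the mean r was 0.85 for Mki67, 0.47 for Mcm2 and -0.33 for Mcm4, and the day 24 library of nonresponder 29 lies far to the right. Without that library the mean r was 0.84, 0.39 and -0.24.

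Across genes the place of Mki67 was high but not singular. The mean of its 8 r values was 0.85, and 2.78% of 13658 genes had a higher mean, where the median of all genes was -0.11. Without the day 24 library of nonresponder 29 its mean was 0.84 and the share 2.69%. Mcm2 had a mean of 0.47 (0.12 to 0.82 over the 8 groups, 9.96% of genes above) and Top2a of 0.26 (16.2%). Without that library Mcm2 was at 0.39 (0.12 to 0.65, 11.3% of genes above) and Top2a at 0.21 (16.6%). With all libraries Mcm5 (0.05), Pold1 (-0.02), Mcm7 (-0.06), Mcm6 (-0.10) and Mcm3 (-0.14) lay near the median, and Mcm4 and Pcna (both -0.33) below it. Without that library Pold1 was at 0.05, Mcm4 at -0.24 and Pcna at -0.28, where the median of all genes was -0.09.

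Besides Mki67, red cell relations of Mcm3 (r = -0.62), Top2a (0.76), Pcna (-0.71) and Pold1 (-0.79) passed the permutation test, with adjusted p from 0.0186 to 0.0482. All of them were in nonresponders on Day 24, and without the 2 farthest libraries r was -0.31, 0.43, -0.29 and -0.18. With the haemoglobin share Mki67 was related in 5 of the 8 groups. These were responders on Day 4 (r = 0.88) and nonresponders on Days 4, 9, 17 and 24 (0.70, 0.72, 0.51 and 0.64), with adjusted permutation p from 0.0004 to 0.0482. On log2(TPM + 1) these 5 relations were negative, at -0.64 in responders and -0.79, -0.67, -0.51 and -0.36 in nonresponders. On that scale 77 of the 80 relations between a member and the haemoglobin share passed, against 7 on TMM-scaled values. Relations of other genes with that share were not tested on either scale, so these counts were not shown to be particular to the members.

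Relations with the plasma cell genes also depended on the scale, and the share of all genes that pass was not computed. Of 80 relations 76 passed on log2(TPM + 1), and 1 on TMM-scaled values, that of Mcm5 in nonresponders on Day 17 (r = 0.52, adjusted permutation p = 0.0482; rho = 0.49, adjusted permutation p = 0.102). Without the 2 farthest libraries r was 0.36, and within the tag series 0.56 (3 digits) and 0.41 (4 digits). Mki67 had r with the plasma cell genes from -0.73 to 0.21 over the 8 groups. The value of -0.73, in nonresponders on Day 24, became -0.11 without the 2 farthest libraries.

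Relations among the members depended on the scale. On TMM-scaled values, after the mean of each response and day was removed, Pearson's r over the 178 libraries, which come from 45 mice and share their scaling, was 0.60 for Mki67 and Mcm2 and 0.50 for Mki67 and Top2a. These were 0.38 and 0.36 without the day 24 library of nonresponder 29. Mki67 ran against Mcm4 and Pcna (both -0.40), at -0.26 and -0.30 without that library. Mcm3 went with Mcm6 (0.52) and Mcm5 (0.49), and Pcna with Mcm6 (0.42) and Mcm4 (0.40). Without that library these 4 values lay between 0.34 and 0.51.

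**Figure D5:**
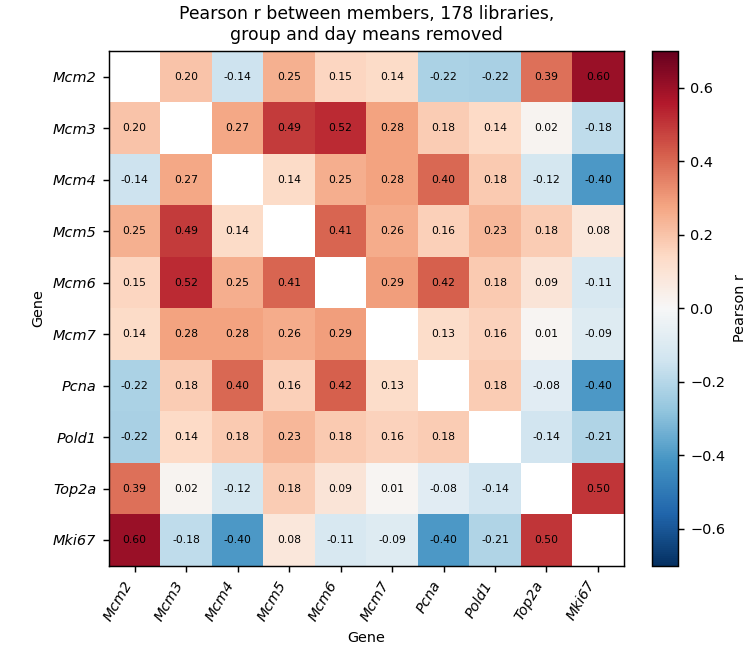
Pearson's r between members over 178 libraries after removing the mean of each response and day (colour and number). Mcm3 is closest to Mcm6 (0.52) and Mcm5 (0.49), Mki67 to Mcm2 (0.60) and Top2a (0.50), the last pair of values being 0.38 and 0.36 without the day 24 library of nonresponder 29.

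Within single groups 360 pairs of members were tested, and pairs of other genes were not. On log2(TPM + 1), 160 passed a permutation test after adjustment in responders and 163 in nonresponders, and on TMM-scaled values 23 passed in all. The 23 were, in responders, 4 on Day 4, 0 on Day 9, 1 on Day 17 and 0 on Day 24, and in nonresponders 6, 1, 3 and 8. Mcm3 and Mcm6 had r = 0.77 in nonresponders on Day 4 (adjusted permutation p = 0.0036) and 0.88 in responders on Day 17 (0.0101). Mki67 and Top2a had r = 0.81 in nonresponders on Day 24 (adjusted permutation p = 0.0054), and 0.49 without the 2 farthest libraries. On TMM-scaled values 1 pair passed in responders and 5 in nonresponders without the day 24 library of nonresponder 29.

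The genes whose pattern was most like that of the members on average, over the 178 libraries and by the mean of r to the 10 members, were Rbbp7, Il2rg, Tbrg1, Sf3a1, Mybbp1a, Trim28, Caprin1, Rpa1, G3bp1 and Eif3d. Their mean r was low, from 0.25 to 0.27. Of these 10 genes 3 (Il2rg, Rbbp7 and Rpa1) were still among the 10 closest without the day 24 library of nonresponder 29. The others were then Cd2, Ighm, H2-DMb2, Cd79a, Tcp1, Ly9 and Cd74, with a mean r of 0.28 to 0.30. The genes closest to Mki67 alone, picked after their values were seen, were Wdr26 (r = 0.91), Nrd1 (0.90), Ranbp10 (0.90), Slc25a51 (0.90) and Tab3 (0.89), above the r of Mki67 with any other member. Without that library their r was 0.84 to 0.87.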

How the data were processed

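Blood RNA of 45 mice was sequenced in 178 libraries. The authors deposited estimated counts per gene, of which 3.14% are not whole, and TPM values, which take each gene per length as a share of all RNA. STAR and mm10 are named in the submitters' processing notes, and the counting tool is not given in the sources used here. All 55450 gene IDs matched GENCODE M21.

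Estimated counts were rounded to whole numbers, filtered with filterByExpr, scaled by TMM and tested with the quasi-likelihood test of edgeR 4.0.16 in R 4.3.3, two-sided, with Benjamini-Hochberg adjustment over all genes and calls at an adjusted p of 0.05. Levels are log2 CPM with a prior count of 2. TPM values were tested with limma 3.58.1 on log2(TPM + 0.1) or log2(TPM + 1), and DESeq2 1.42.0 was a second count test. Responders and nonresponders were compared within each day, days within each response, and the changes between responses over all libraries. Relations were tested with 100000 two-sided permutations (Python 3.11.15, numpy 2.4.6, pandas 2.3.3, scipy 1.17.1), and plots were drawn with matplotlib 3.10.9. The edgeR and permutation code was tested on simulated data. The p-values within a day measure the spread between mice. Those of the comparisons between days, and of the difference of the changes, treat libraries of the same mouse as independent. They measure the spread between libraries, except where the mouse is a block.

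The same mouse was bled on several days, so the mouse was used as a block in an alternative fit. Deviations from the group means of the same mouse on 2 days had a mean correlation over genes of -0.0495 to 0.0966. For single members, r across mice between 2 days ran from -0.383 (Mcm2) to 0.404 (Mcm3), both for Days 17 and 24. For Pold1 it was 0.373 between Days 4 and 9. Other alternatives covered scaling, filters, fold size, the 2 ear tag series, which may be batches, and leaving out each mouse. The day 17 library of nonresponder 24, with conflicting labels, was kept with its mouse, left out, or counted as a responder. Counted as a responder, it gave the same direction and call in the 164 single-gene results recomputed that way. No pair of libraries was identical.

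The members and gene lists were chosen with earlier results of these data known. All 10 members are named, with up to 3 called genes of smallest p per direction from each other list, and the 10 genes of highest mean r to the members. Sequences other than promoters were not used here.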

Additional observations from a re-analysis of the deposited data

Results flagged for a closer look

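The change of Mki67 from Day 4 to Day 24 differed between the response groups by the test of the difference itself, at -0.94 (responders minus nonresponders, log2, edgeR adjusted p = 0.0493). Responders changed by 0.10 and nonresponders by 1.03. Without the day 24 library of nonresponder 29 the difference of Mki67 was -0.48 (edgeR adjusted p = 0.2), and with the ear tag series by day as covariates it was -1.19 (0.00444). The call was also lost without the day 17 library of nonresponder 24, at -0.94 (edgeR adjusted p = 0.0503), and with no filter beyond 1 count, at -0.93 (0.0815). With the mouse as a block it was -0.63 (edgeR adjusted p = 0.171). By limma on TPM its sign turned, at 0.115 and 0.0409 with pseudocounts of 0.1 and 1.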

How the results depend on the processing

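Of the single-gene results recomputed, 2461 kept their direction and side of the threshold, 272 lost a call, 86 gained one and 41 changed sign. Low counts of Top2a, the small group of responders and the partial overlap of ear tag series with response limit these comparisons. The cause of the shifts below was not tested. Counts of called members are given by setting. Each has the share of all genes called the same way in parentheses, from another fit where that is stated.

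On TPM with limma, with a pseudocount of 0.1 or 1, 0 members were higher (0.249% to 0.889%) and 9 lower (84.9% to 89.2%) in responders on Day 4 and on Day 9. A Wilcoxon test on TPM gave 0 higher on both days (0.369% and 0.711%), and 8 and 9 lower (85% and 88.6%). Within responders 0 members were lower by TPM on Day 9, 17 or 24 against Day 4 (0.0177% to 0.177%), and 0 changed from Day 9 to Day 17 (0.151% and 0.169%). Within nonresponders 1 was higher on Day 9 against Day 4 (9.36% and 9.72%) and 1 lower (6.49%), with 4 lower for a pseudocount of 1 (9.98%), and 0 were higher on Day 17 against Day 4 (2.27% and 2.12%). With a pseudocount of 1, 0 were higher on Day 24 against Day 4 (1.43%). From Day 9 to Day 17 0 were higher (0.17% and 0.187%) and 1 lower (34.2% and 41.7%), and from Day 17 to Day 24 0 were higher (0.298% and 0.264%). For 0 members the Day 24 change was lower in responders (0.0172%).

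With a fold of at least 1.5, 0 members were lower in any comparison of Days 9, 17 and 24 with Day 4 (0.592% to 2.08%). By this rule 1 was higher in responders than in nonresponders on Day 9 (3.63%) and 1 in nonresponders on Day 9 against Day 4 (8.27%). In nonresponders 0 rose on Day 17 against Day 4 (4.37%) or from Day 17 to Day 24 (1.26%), and 0 rose from Day 9 to Day 17 in either group (0.39% and 0.469%). With no filter beyond 1 count, 1 member was higher in responders on Day 9 (4.63%), 1 in nonresponders on Day 9 against Day 4 (13.7%), 0 were lower in responders on Day 24 (3.1%) and 0 had a lower Day 24 change in responders (0.372%).

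Among mice with 3-digit tags 0 members were higher in responders on Day 4 (0%) and 1 on Day 9 (3.96%). Within these responders 0 rose (3.62%) and 2 fell (3.32%) on Day 9, 0 fell on Day 17 or 24 (0%), and 0 rose from Day 9 to Day 17 (0.134%), and within these nonresponders 0 rose from Day 17 to Day 24 (7.06%). Among mice with 4-digit tags 0 were higher in responders on Days 4 and 9, as was no gene of all tested (0%). Within these responders 0 fell on Day 24 (1.66%) and 0 from Day 9 to Day 17 (3.34%). Within these nonresponders 0 rose (8.09%) and 3 fell (6.21%) on Day 9, 0 rose (6.72%) and 2 fell (6.03%) on Day 17, 1 fell on Day 24 (0.931%), and 0 rose between the later days (2.94% and 4.19%).

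With the mouse as a replicate block, 2 members rose in responders on Day 9 (15.8%), 2 rose (2.21%) and 0 fell (4.1%) from Day 9 to Day 17, 0 rose in nonresponders from Day 17 to Day 24 (8.06%), and 0 had a lower Day 24 change in responders (0.285%). Pold1 in responders on Day 17 also gained its call, and the block changed no other call of a member. DESeq2 called 6 members lower in responders on Day 17 against Day 4 (14.2%), where edgeR called 4. In nonresponders it called 7 lower on Day 24 against Day 4, where edgeR called 6 (24.8% in edgeR). It called 1 member higher in nonresponders from Day 17 to Day 24 (1367 of 13009 genes). Without the day 24 library of nonresponder 29 the same count was 1 (10.1%), and 0 had a lower Day 24 change in responders (0.248%), as also without the day 17 library of nonresponder 24 (2.01%).

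When single mice were left out, the shares in parentheses are those of the fits with all mice. The number of members higher in responders was 1 to 1 on Day 4 (6.4%) and 1 to 2 on Day 9 (9.43%). It was 0 to 0 on Days 17 (0.799%) and 24 (3.41%), with 0 to 0 lower on every day (1.01%, 3.96%, 1.19% and 5.14%). Within responders 0 to 2 rose (13.5%) and 6 to 7 fell (14.2%) on Day 9 against Day 4. On Day 17 0 to 1 rose (12.2%) and 4 to 6 fell (13.4%), and on Day 24 0 to 0 rose (7.44%) and 0 to 1 fell (9.94%). From Day 9 to Day 17 1 to 2 rose (1.85%) and 0 to 2 fell (3.68%), and from Day 17 to Day 24 0 to 0 (9.59% and 9.31%). Within nonresponders 2 to 2 rose (23.3%) and 7 to 7 fell (27.5%) on Day 9 against Day 4. On Day 17 these were 1 to 2 (21.9%) and 7 to 7 (24.2%), and on Day 24 1 to 1 (23.8%) and 5 to 7 (24.8%). From Day 9 to Day 17 2 to 3 rose (10.3%), and from Day 17 to Day 24 0 to 2 (9.86%), with 0 to 0 lower in both (16.2% and 11.3%).

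Relations and pairs were tested for the members alone, so no share of all genes stands beside these counts. Of the relations with the haemoglobin share, 77 passed on log2(TPM + 1), 11 with values centred on the tag series and 4 without the day 24 library of nonresponder 29. With plasma cell genes 76, 3 and 0 passed, and 2 with haemoglobin genes removed before scaling. Of the pairs of members 160 passed in responders and 163 in nonresponders on log2(TPM + 1), and 1 and 5 without that library. The values over all libraries without it, given in the report for the relations among members and the genes of most similar pattern, were chosen after seeing the data.

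Signs turned as follows, with the 2 pseudocounts (0.1, then 1) in order and the Wilcoxon test on TPM after them. Mki67 between the groups was -0.137, -0.0441 and -0.0459 on Day 4, and -0.0238 by the Wilcoxon test on Day 9. Its difference of the Day 24 change was 0.115 and 0.0409. Top2a on Day 9 was -0.34, -0.11 and -0.11. Rrm2 was -0.122, -0.0318 and -0.0325 on Day 4 and -0.0823, -0.0167 and -0.0126 on Day 9. E2f2 on Day 4 was -0.0501, -0.0412 and -0.0337. On Day 9 Dnmt1 was -0.49, -0.31 and -0.31 and Tyms -0.106, -0.0212 and -0.0187. In responders on Day 17 against Day 4 Mcm3 was 0.0353 and 0.0029, and Mcm6 0.0572 and 0.0106. In nonresponders from Day 9 to Day 17 Mcm7 was -0.17 and -0.11, Pcna -0.23 and -0.18, and Pold1 -0.0667 and -0.0505. Mcm4 in responders with 3-digit tags was 0.16 on Day 9. On log2(TPM + 1) r of Mki67 with the haemoglobin share was -0.64 in responders on Day 4 and -0.79, -0.67, -0.51 and -0.36 in nonresponders on Days 4, 9, 17 and 24, and r of Top2a with the red cell genes was -0.0655 in nonresponders on Day 24.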
